A study of Homo sapiens with 5 samples.

Results

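The plasminogen activator system was examined through 5 genes, PLAU, PLAUR, PLAT, SERPINE2 and SERPINB2, out of 20098 protein-coding genes on chromosomes 1 to 22 and X. The genes were taken as a named set, chosen with earlier results of these data known, and no value of their peaks entered the rule. For each gene, called peaks of Fra-1, MYC and E2F1 were collected in promoters (from 2 kb upstream to 2.5 kb downstream of any annotated TSS), in the rest of the gene body and in flanks of 50 kb on each side, together called the locus. The peaks came from LM2 cells, a subline of MDA-MB-231 breast cancer cells that metastasizes specifically to the lung. The labels call the cells untreated, whereas a legend in the study's supplement links the ChIP-Seq to LM2 cells carrying a control vector or an shRNA, and which of these were used was not resolved here. Each transcription factor (TF) was immunoprecipitated once with its own antibody, giving 1 ChIP-Seq library per TF, and the same input DNA served as control for all of them. EZH2 and input libraries belong to the same series and had no peak list used here, and the histone marks and a further TF were not analysed here. Thus no replicate spread can be given, and no test between TFs was made. Except where stated, counts are set beside the same count over all protein-coding genes or all peaks of the list. The lists record positions of enrichment and hold no expression values.

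Plasminogen is an inactive protease of blood plasma that becomes plasmin when it is cleaved by an activator. PLAU encodes the urokinase-type activator uPA, which acts largely at the cell surface bound to its receptor uPAR, the product of PLAUR. PLAT encodes the tissue-type activator tPA, known best for dissolving fibrin clots. SERPINE2 encodes protease nexin-1, a secreted serpin that inhibits thrombin and both activators, and SERPINB2 encodes PAI-2, a mostly intracellular serpin that inhibits uPA. Plasmin degrades fibrin and extracellular matrix, and the uPA system has long been studied in tumor cell invasion. Fra-1, the product of FOSL1, is a subunit of the AP-1 dimer, which binds TGACTCA or TGAGTCA. MYC binds the E-box CACGTG together with MAX, and E2F1 regulates genes of the cell cycle.

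In these loci 19 Fra-1 peaks, 2 MYC peaks and 48 E2F1 peaks were called, from lists of 17311, 4857 and 36901 peaks. PLAU held the most Fra-1 and E2F1 peaks of the 5 genes, with 8 and 24, and had 1 MYC peak, as did PLAT. E2F1 was called in the promoters of all 5 genes, against 61.3% of all protein-coding genes. Fra-1 was called in those of 3 (PLAU, PLAUR and PLAT), against 13.2%, and MYC in that of PLAU alone, against 17.8%. The inhibitor genes SERPINE2 and SERPINB2 had neither a Fra-1 nor a MYC promoter peak. The strongest Fra-1 peak of the set lay at −16.4 kb from the canonical TSS of PLAU, outside the promoter, and the strongest E2F1 peaks lay at the start sites of PLAUR and PLAU.

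The sequence under the Fra-1 summits is shown first, because the summit marks the position of highest coverage. The lines below give stretches of 29 to 85 bases from the plus strand of GRCh37, with the AP-1 words TGACTCA and TGAGTCA and the word TGANNTCA, in which 2 bases separate the arms, in capitals. They were chosen to show the strongest Fra-1 peaks of PLAU with and without a match, the promoter peaks of PLAU and PLAUR, further peaks of both genes, and the strongest Fra-1 peak of each inhibitor gene. No sequence of PLAT is printed. Distances are in the direction of transcription from the canonical TSS.
PLAU −16.4 kb (chr10:75654475-75654555, plus strand): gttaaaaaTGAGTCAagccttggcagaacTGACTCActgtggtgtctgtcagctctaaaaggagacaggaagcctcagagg
PLAU −23.2 kb (chr10:75647634-75647714, plus strand): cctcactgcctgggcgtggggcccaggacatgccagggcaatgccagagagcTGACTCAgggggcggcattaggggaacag
PLAU −4.30 kb (chr10:75666551-75666631, plus strand): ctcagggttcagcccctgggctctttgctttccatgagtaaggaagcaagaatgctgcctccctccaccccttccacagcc
PLAU −1.95 kb (chr10:75668907-75668935, plus strand): ccaggaggaaaTGAAGTCAtctgctctca
PLAU +21.4 kb (chr10:75692221-75692301, plus strand): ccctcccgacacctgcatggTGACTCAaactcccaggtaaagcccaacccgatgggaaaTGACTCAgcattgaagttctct
PLAUR +1.09 kb (chr19:44173193-44173273, plus strand): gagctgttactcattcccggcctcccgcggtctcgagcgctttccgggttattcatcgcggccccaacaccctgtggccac
PLAUR −5.40 kb (chr19:44179683-44179767, plus strand): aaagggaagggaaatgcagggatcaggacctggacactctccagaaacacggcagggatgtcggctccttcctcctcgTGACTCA
SERPINE2 −47.5 kb (chr2:224951414-224951494, plus strand): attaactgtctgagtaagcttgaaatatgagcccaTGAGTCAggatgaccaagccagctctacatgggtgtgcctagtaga
SERPINB2 −4.92 kb (chr18:61549979-61550059, plus strand): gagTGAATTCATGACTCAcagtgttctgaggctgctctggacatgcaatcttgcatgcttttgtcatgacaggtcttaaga
The −16.4 kb peak of PLAU and the +21.4 kb peak each hold a pair of AP-1 words. At SERPINB2 the words TGAATTCA and TGACTCA stand directly next to each other. The −4.30 kb peak of PLAU holds no AP-1 word in this stretch or anywhere in the called peak, although its fold enrichment over the input (19.7) was the second highest of the 19.

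Over all members, an AP-1 word lay within 50 bp of 12 of 19 Fra-1 summits (63.2%, exact 95% binomial interval 38.4 to 83.7%), and over the whole Fra-1 list it lay at 53.3% of 17311 summits. In 9 of these 12 summits the nearest word was centred within 20 bp of the summit, and the median distance was 16 bp. This distance was not computed over the whole Fra-1 list, so it does not set the members apart from other Fra-1 summits. The word TGANNTCA lay at 2 of 19 summits (10.5%, 1.30 to 33.1%), against 6.97% of the list. The shares of the whole list thus lay within the counting intervals of the members' shares. The binomial intervals, here and below, treat peaks as independent draws. Peaks of a locus lie close together, with 8 of 19 Fra-1 and 24 of 48 E2F1 peaks at PLAU, so the intervals may be too narrow. A match describes the letters in the window, and whether a site was occupied was not tested.

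PLAU (ENSG00000122861.16_9) lies on the plus strand of chromosome 10 from 75668935 to 75677254 (GRCh37), with 5 annotated start sites and the canonical TSS at 75670890. Its 8 Fra-1 peaks were all joined by an overlapping E2F1 peak. Fold enrichment is the ratio of the fragment pileup at the summit to the local background of the input. Pileup and background are both in fragments scaled to the depth of the input, whereas fragment numbers given for a peak are unscaled counts. The intervals given with fold enrichment are approximate 95% Poisson intervals of the fragment count that cover counting error only. The strongest Fra-1 peak, at −16.4 kb between genes, had a fold enrichment of 33.8 (26.7 to 41.8, from about 79 fragments). Its −log10 q was 89.5, and it ranked 81 of the 17320 Fra-1 peaks on all sequences. A peak at −23.2 kb had a fold enrichment of 18.0 (13.8 to 23.1), and between them peaks at −18.3 and −17.6 kb reached 8.10 and 7.99. The −4.30 kb peak had a fold enrichment of 19.7 (15.5 to 24.96). The peaks at −23.2, −16.4 and −4.30 kb were the only Fra-1 peaks of the 5 genes above the 90th percentile of the list, and none of these 3 was in a promoter window.

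The single Fra-1 promoter peak of PLAU, at −1.95 kb from the canonical TSS, had its summit 10 bp into the transcript that starts farthest upstream, in the exon that begins at 75668935. Its fold enrichment was 8.99 (6.54 to 12.1), close to the list median of 8.24. The word nearest its summit was TGAAGTCA, centred 24 bp upstream, and a TGACTCA lay 250 bp downstream in the same peak. Downstream of the gene, Fra-1 peaks at +21.4 and +55.2 kb had fold enrichments of 10.1 (6.61 to 15.0) and 6.54 (4.87 to 8.73). The local background at the last of these was 4.96 scaled fragments against a list median of 1.89. It was the only Fra-1 peak of the set over the list's 90th percentile of background (3.96). The part of background in its fold enrichment was not tested.

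MYC had 1 peak at PLAU, of 120 bp, in the promoter. Its summit, at −1.95 kb, was 3 bp from the Fra-1 summit. It was a weak peak, with a fold enrichment of 5.01 (3.26 to 7.48, from about 20 fragments) and a −log10 q of 3.26. By fold enrichment it ranked 4389 of the 4867 MYC peaks on all sequences. No CACGTG lay within 50 bp of the summit, whereas such an E-box lay at 16.8% of MYC summits overall. The peak fell wholly within a Fra-1 peak and an E2F1 peak, which made chr10:75668940-75669059 the only region at the 5 genes where peaks of all 3 TFs overlapped, out of 1027 such regions on the chromosomes used. There Fra-1 reached a fold enrichment of 8.99, MYC 5.01 and E2F1 22.3, and the E2F1 summit lay 326 bp from that of Fra-1.

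E2F1 covered PLAU almost from end to end. A series of 5 E2F1 peaks, each between 1340 and 2041 bp long against a list median of 290 bp, followed each other over 8.95 kb and covered 88.6% of the gene. Their summits were at −1.62, +0.426, +1.93, +3.68 and +5.95 kb, with fold enrichments of 22.3 (18.1 to 27.4), 37.7 (31.4 to 44.8), 23.6 (19.6 to 28.2), 22.5 (17.8 to 28.2) and 13.6 (10.5 to 17.2). The highest value thus stood just downstream of the canonical TSS and the lowest in the exon at the end of the gene. The local background under these peaks was between 0.987 and 1.97 scaled fragments. Among 17227 protein-coding genes that span at least 5 kb, PLAU ranked 3rd by the share of its span under E2F1 peaks, after IMPDH2 (94.5%) and PHLDA1 (92.6%) and before VIM (87.6%) and ZFP36L1 (87.0%), and the median over these genes was 0.634%. The rank depends on this limit, since over protein-coding genes of any span 73 (0.363%) reached the share of PLAU. C10orf55, annotated on the opposite strand, overlaps PLAU, and the peaks cannot be assigned to 1 of the 2 genes.

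Upstream of these, E2F1 peaks at −4.21 and −3.16 kb touched the promoter window, with fold enrichments of 13.7 and 11.3, and 2 of the 24 peaks lay in the promoter of CAMK2G at −36.7 and −36.3 kb. Counted over the whole locus, 8 Fra-1 peaks or more were found at 303 protein-coding genes (1.51%), where the median gene had 1, and 24 E2F1 peaks or more at 147 genes (0.731%), where the median gene had 3. PLAU is short, so per 100 kb of locus its Fra-1 density of 7.39 peaks was reached by 38 genes (0.189%). By peak number PLAU therefore stood near the upper end of the genome for both TFs.

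**Figure D1:**
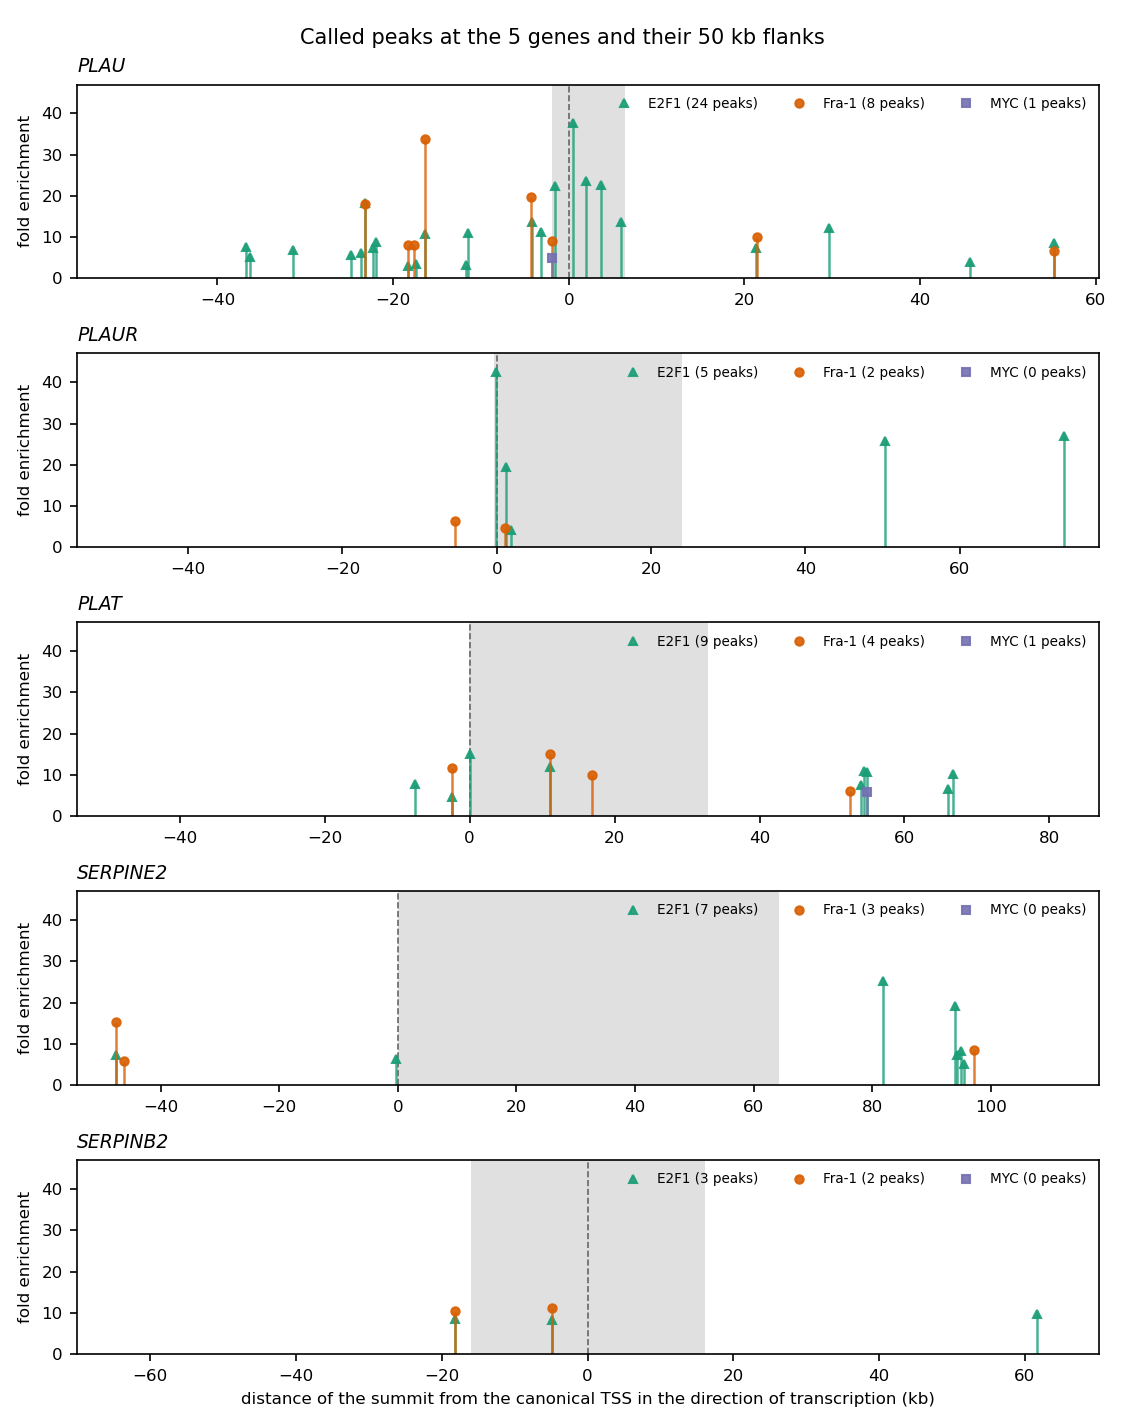
Fold enrichment of every called peak (vertical axis) against the distance of its summit from the canonical TSS in kb, 1 panel per gene, with the gene span shaded and the TSS dashed. Triangles are E2F1, circles Fra-1 and squares MYC. PLAU shows 24 E2F1 peaks with a dense series over the gene and its tallest Fra-1 peak (33.8) at −16.4 kb, while the SERPINE2 gene body holds no peak.

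PLAT (ENSG00000104368.19_13), the gene of the other activator, is transcribed from the minus strand of chromosome 8 (42032236 to 42065227), with the canonical TSS at 42065083 and 12 start sites. E2F1 had a peak directly at the canonical TSS, with the summit at −20 bp and a fold enrichment of 15.0 (10.8 to 21.0), and no Fra-1 or MYC peak overlapped it. The Fra-1 promoter peak lay instead at +11.1 kb, in an intron of the canonical transcript, with its summit at −758 bp from an alternative TSS. There the fold enrichment was 15.0 (10.6 to 20.2) for Fra-1 and 11.8 for E2F1, with summits 40 bp apart. This was the strongest Fra-1 promoter peak of the 5 genes, and 362 protein-coding genes (1.801%) had a Fra-1 promoter peak of that strength or more.

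Fra-1 had further peaks at PLAT close to, yet outside, the promoter windows. A peak at −2.44 kb, 190 bp from a window, had a fold enrichment of 11.7 (7.72 to 16.7), and a peak at +16.9 kb in an intron, 55 bp from a window, had 9.91 (6.09 to 16.005). An AP-1 word TGAGTCA lay within 20 bp of the summit in the promoter peak and in both of these. The remaining peaks of the locus were mostly at other genes, with 1 Fra-1 peak (6.16), the MYC peak (5.91, 3.88 to 8.61) and 3 E2F1 peaks (7.65 to 11.0) in the promoter of AP3M2. Thus MYC had no peak in the promoter or body of PLAT.

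PLAUR (ENSG00000011422.12_10), the receptor gene, is a minus-strand gene of chromosome 19 (44150247 to 44174699), with 16 start sites and the canonical TSS at 44174321. Here E2F1 was strong and Fra-1 weak. The E2F1 peak with its summit at −53 bp had a fold enrichment of 42.5 (35.9 to 50.04) and a −log10 q of 125, the highest of the 69 peaks. Among protein-coding genes, 1276 (6.35%) had an E2F1 promoter peak of at least this strength. The next E2F1 peak, at +1.16 kb, had a fold enrichment of 19.5 (16.3 to 23.2), and the last, at +1.87 kb, had 4.31 (2.64 to 6.44).

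The Fra-1 promoter peak of PLAUR was the weakest Fra-1 peak of the set. It lay at +1.09 kb in an intron, within the E2F1 peak at +1.16 kb, with a fold enrichment of 4.62 (2.86 to 6.85) and a −log10 q of 5.30. A TGACTCA centred 50 bp from its summit reached past the window searched and was not counted. The other Fra-1 peak of PLAUR, at −5.40 kb between genes, had 6.32 (3.56 to 10.3), with a TGACTCA 41 bp from the summit and no overlapping E2F1 peak. Both remaining E2F1 peaks (26.9 and 25.8) were in promoters of other genes, 1 of IRGQ, SRRM5 and ZNF576 at the edge of the locus and 1 of ZNF428. No MYC peak was called in the PLAUR locus.

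SERPINE2 (ENSG00000135919.14_15), the gene of protease nexin-1, occupies bases 224839762 to 224904035 of chromosome 2 on the minus strand, with 9 start sites and the canonical TSS at 224904003. Its only promoter peak was an E2F1 peak with the summit at −355 bp and a fold enrichment of 6.46 (3.96 to 9.66), below the list median of 8.88. That peak lay wholly upstream of the gene, and no peak of any of the 3 TFs lay within its span of 64.3 kb, the longest of the set. The Fra-1 peaks were all distal. The strongest, at −47.5 kb between genes, had a fold enrichment of 15.2 (11.96 to 19.2) with a TGAGTCA centred 2 bp from the summit, and E2F1 overlapped it with 7.30.

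A weaker Fra-1 peak stood next to it at −46.1 kb (5.98), and another lay at +97.1 kb in an intron of WDFY1 (8.40). The E2F1 peaks in the downstream flank lay in the promoters of MRPL44 (25.3) and WDFY1 (5.09 to 19.3). The strongest E2F1 peaks of the SERPINE2 locus thus belonged to promoters of neighbouring genes.

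SERPINB2 (ENSG00000197632.9_7), the gene of PAI-2, lies on the plus strand of chromosome 18 from 61538926 to 61571122, with 5 start sites and the canonical TSS at 61554939. At the canonical TSS no peak of any TF was called. A Fra-1 peak at −4.92 kb, in an intron of the longer transcripts, had a fold enrichment of 11.3 (7.42 to 16.3), and the E2F1 peak there had 8.16, with summits 7 bp apart. A second pair lay at −18.2 kb, upstream of the outermost start site, with 10.5 (6.46 to 16.5) for Fra-1 and 8.48 for E2F1, and summits 4 bp apart. The last E2F1 peak of the locus (9.71) was in the promoter of HMSD.

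The promoter call at SERPINB2 rested on peak length. The E2F1 peak at −18.2 kb was 538 bp long and reached the window of the outermost TSS, while its summit did not, and the Fra-1 peak beneath it was 154 bp long and ended 80 bp short of the window. The Fra-1 peak of PLAU at −4.30 kb likewise ended 119 bp short, whereas the E2F1 peak over it reached the window. The gaps of 55 and 190 bp at PLAT complete the Fra-1 peaks that fell just outside.

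Read against all protein-coding genes, the promoter counts of the 3 TFs were as follows. Fra-1 promoter peaks were present at 3 of 5 genes, against 13.2% of all protein-coding genes, and a Fra-1 peak in promoter or gene body at 4 of 5, against 26.2%. All 5 had a Fra-1 peak somewhere in the locus, as did 55.8% of all genes. With 5 genes, a count of 3 or 4 has a wide counting error, and the difference from these shares was not tested.

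MYC promoter peaks were present at 1 of 5, against 17.8% of genes, at 1 of 5 when the gene body was added, against 19.6%, and at 2 of 5 over the locus, against 39.5%. The MYC counts were thus near the background. E2F1 promoter peaks were present at all 5, against 61.3%, with 66% of genes for promoter or gene body and 83% for the locus. More than 3 in 5 genes of the genome have an E2F1 promoter peak, so that its presence at all 5 says little about them.

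By combination, PLAU was among 939 protein-coding genes (4.67%) with promoter peaks of all 3 TFs. PLAUR and PLAT were among 1541 (7.67%) with Fra-1 and E2F1 but no MYC. SERPINE2 and SERPINB2 were among 7202 (35.8%) with E2F1 alone, which is the commonest of these patterns. The activators and the receptor therefore had Fra-1 in a promoter window and the inhibitors did not, a split of 3 and 2 genes that is described here and not tested.

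**Figure D2:**
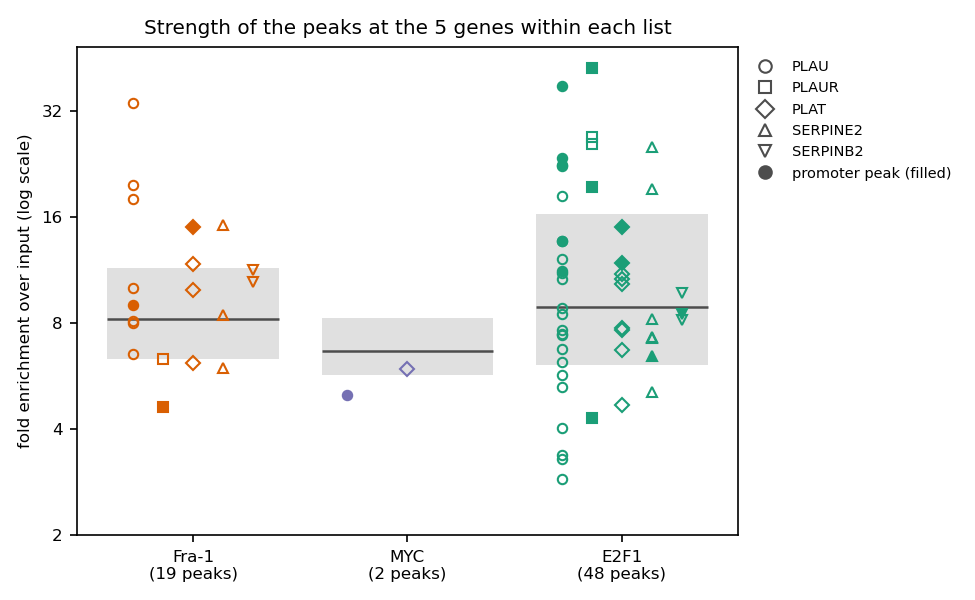
Fold enrichment over input on a log2-spaced axis for the peaks at the 5 genes, by TF, with filled symbols for promoter peaks. The grey box spans the 25th to 75th percentile of the whole list of that TF and the line is its median. Of the 6 Fra-1 peaks above the box 3 are those of PLAU, both MYC peaks lie below their line, and the E2F1 peaks spread from 2.88 to 42.5.

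In strength, the members' peaks covered much of the range of each list. The 19 Fra-1 peaks had a median fold enrichment of 9.91 (4.62 to 33.8) against 8.24 over the list (interquartile range 6.32 to 11.4), and 12 of them were above the list median. The 48 E2F1 peaks had a median of 8.64 (2.88 to 42.5) against 8.88 (6.09 to 16.3), and 23 were above it. Both MYC peaks, at 5.01 and 5.91, were below the MYC median of 6.67.

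The local background under the members' E2F1 peaks ranged from 0.379 to 6.98 scaled fragments around a list median of 0.996. In 5 of 48 peaks it was above the list's 90th percentile of 2.97. The highest was at the −18.3 kb peak of PLAU, where E2F1 reached a fold enrichment of only 2.88 from about 37 fragments, counted before scaling. The part of background in these low values was not tested. Libraries also differed in depth after removal of duplicate positions (from 10758036 tags in the input to 23853621 in the MYC library), and MYC gave the shortest list from the deepest library, with 4867 peaks against 17320 for Fra-1 and 36933 for E2F1. Fold enrichments are therefore compared between TFs only as deposited values.

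Fra-1 and E2F1 peaks at these genes frequently coincided. Of the 19 Fra-1 peaks, 14 overlapped an E2F1 peak (73.7%, 48.8 to 90.9%), including all 8 at PLAU and both at SERPINB2, and over the list 61.5% did. Of the 48 E2F1 peaks, 14 overlapped a Fra-1 peak (29.2%, 17.0 to 44.1%), against 28.3% of the list. Summits of the 14 pairs were a median of 33 bp apart and 9 pairs (64.3%) were within 50 bp, against 32 bp and 64.4% in 10700 pairs genome-wide. Overlap and summit spacing at the members were thus close to those of the lists as a whole.

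The balance of the 2 TFs varied along the genes. The ratio of Fra-1 to E2F1 fold enrichment had a median of 1.37 and was above 1 in 10 of 14 pairs, against a median of 1.23 and 63.8% of all pairs. It was lowest in the promoter peaks of PLAUR (0.237) and PLAU (0.403). Outside promoter windows it was above 2 in 5 pairs. These were PLAU −18.3 kb (2.81), −17.6 kb (2.36) and −16.4 kb (3.17), PLAT −2.44 kb (2.51) and SERPINE2 −47.5 kb (2.09). The remaining pairs below 1 also lay outside the windows, at PLAU −23.2 kb (0.981) and +55.2 kb (0.771). The promoter peak of PLAT, at an alternative TSS in an intron, had 1.27. At the PLAU promoter the summits compared are 326 bp apart.

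The local background entered these ratios, since it differed between the lists at some pairs. At PLAU −18.3 kb it was 1.96 scaled fragments for Fra-1 and 6.98 for E2F1, at −17.6 kb 0.878 and 2.85, and at −16.4 kb 0.984 and 1.91. Ratios of the scaled pileups themselves, added after these values were seen, were 1.05, 1.17 and 2.20 at these peaks and 0.630 at the PLAU promoter, against 2.75 at PLAT −2.44 kb, 2.68 at SERPINE2 −47.5 kb and 0.224 at the PLAUR promoter. By pileup 9 of 14 pairs were above 1, with a median of 1.22, against 62.5% and a median of 1.23 over all pairs. With 1 library and a different antibody per TF, a difference between Fra-1 and E2F1 at a site was not tested.

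**Figure D3:**
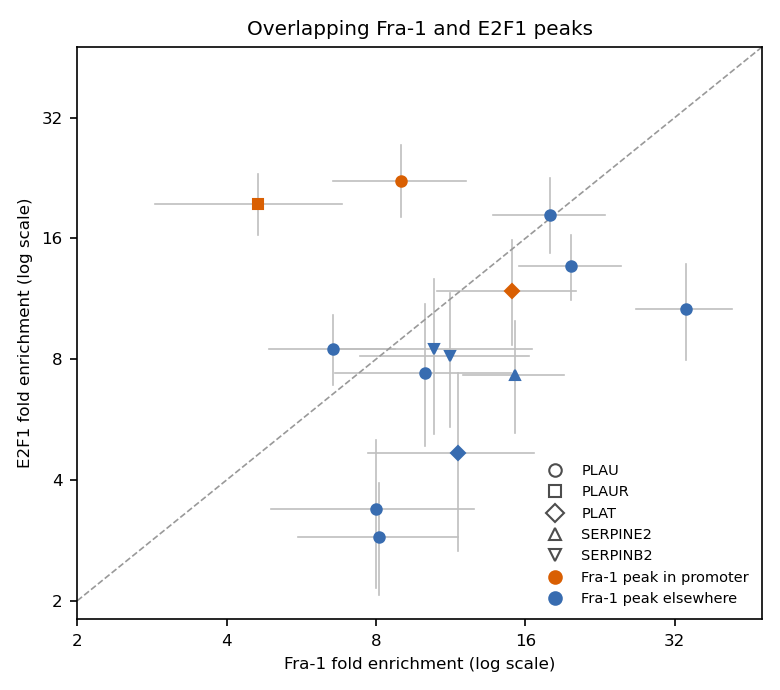
Fold enrichment of E2F1 (vertical) against Fra-1 (horizontal) at the 14 overlapping pairs, both on log2-spaced axes, with approximate 95% counting intervals as grey bars and equality dashed. Orange marks pairs whose Fra-1 peak is in a promoter. The promoter pairs of PLAU and PLAUR stand far above the dashed line, and PLAU −16.4 kb stands farthest to the right, below it.

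AP-1 words were also present under E2F1 summits. In 10 of 48 cases (20.8%, 10.5 to 35.0%) such a word was within 50 bp, against 12.2% over the E2F1 list, and at 7 of the 14 E2F1 summits whose peak overlapped Fra-1 (50%, 23.04 to 76.96%), against 36.1% of such peaks over the list. The E2F words searched (TTTCCCGC, TTTGGCGC, TTTCGCGC and TTTGCCGC, both strands) matched 1 of 48 summits, against 1.68% of the list. That match, TTTCCCGC, lay under the weak +1.87 kb peak of PLAUR, and the strong peaks at the start sites of PLAUR and PLAU had none within 50 bp. The E-box was found at 0 of 48 E2F1 summits, which allows a share of up to 7.40% by the exact interval and does not set the members apart from the list (2.56%), and at neither MYC summit.

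**Figure D4:**
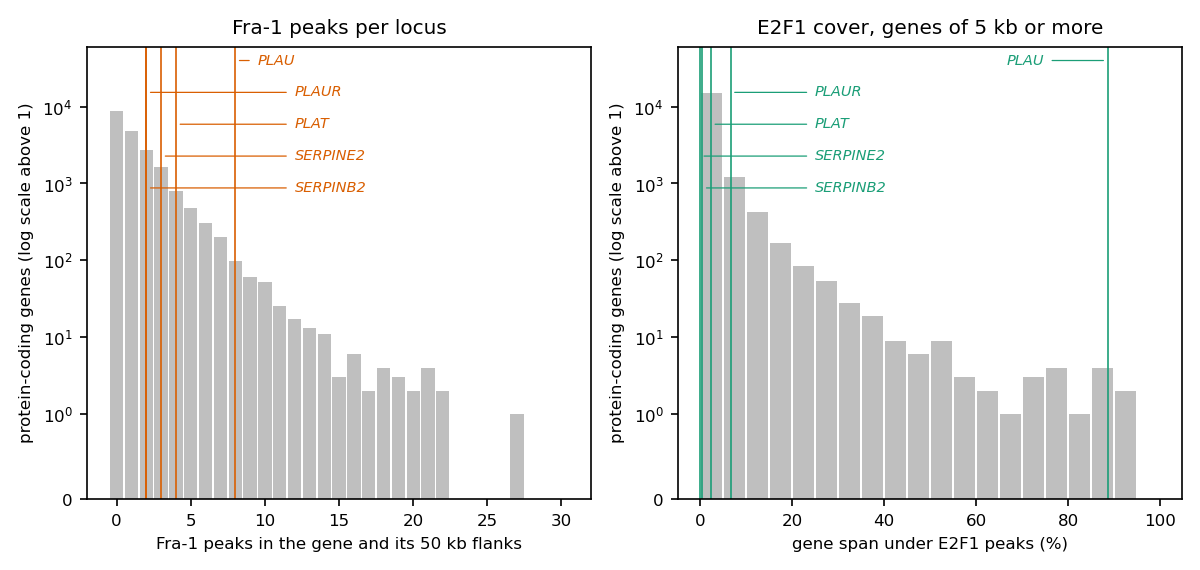
Number of protein-coding genes, on a log axis above 1, by the number of Fra-1 peaks in the gene and its 50 kb flanks (left) and, for genes spanning 5 kb or more, by the percentage of the gene span under E2F1 peaks (right). Lines mark the 5 genes. PLAU stands at 8 Fra-1 peaks and 88.6% of its span, and the other 4 genes stand at 2 to 4 Fra-1 peaks and under 10% of their span.

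The other members stood closer to the middle of the distribution. The 4 Fra-1 peaks in the PLAT locus were reached by 10.4% of protein-coding genes, the 3 at SERPINE2 by 18.5%, and the 2 at PLAUR and SERPINB2 by 32.1%. By E2F1 peak number, 9 at PLAT was reached by 18.1% of genes, 7 at SERPINE2 by 26.7%, 5 at PLAUR by 40.4% and 3 at SERPINB2 by 60.7%. PLAUR and PLAT had 6.67% and 2.41% of their span under E2F1 peaks, and SERPINB2 0.537%.

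In a list of 19 other genes of plasminogen activation, its receptors and inhibitors, Fra-1 promoter peaks were found at 6 (31.6%, against 13.2% of all protein-coding genes), MYC at 3 (15.8%, against 17.8%) and E2F1 at 11 (57.9%, against 61.3%). The MYC and E2F1 counts were thus near the background. The 6 with Fra-1 were ANXA2 (largest promoter fold enrichment 25.2), ENO1 (18.6), S100A10 (13.4), LRP1 (10.5), SRPX2 (10.1) and PLGRKT (7.55). ANXA2 and S100A10 form a plasminogen-binding complex at the cell surface, ENO1 and PLGRKT are also plasminogen receptors, LRP1 is an endocytic receptor that takes up uPA with its inhibitors, and SRPX2 is a ligand of uPAR. The largest E2F1 promoter values were those of ENO1 (59.8), ANXA2 (44.3) and S100A10 (35.9). PLG, the gene of plasminogen itself, which is made mainly in liver, had no peak of any TF in its locus.

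SERPINB2 lies in a cluster of clade B serpin genes. Of 9 others in that cluster, 0 had a Fra-1 or a MYC promoter peak, and 2 had an E2F1 promoter peak, SERPINB5 (5.27) and SERPINB8 (23.3), against 13.2%, 17.8% and 61.3% of all protein-coding genes for Fra-1, MYC and E2F1. With 9 neighbouring genes, counts of 0 are close to what the shares for Fra-1 and MYC give. SERPINB10 was the only one with Fra-1 peaks in its locus, and its 2 peaks are the same as those of SERPINB2, since the flanks overlap.

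The genes most like each member were sought over 6 values, the log2 of the largest fold enrichment plus 1 of each TF in the promoter and in the rest of the locus. PLAU was nearest to LPP (distance 0.872), FGD6 (0.886) and PRPSAP1 (0.903), and PLAUR to TMEM134 (0.278), TOR1AIP1 (0.404) and MSANTD3 (0.517). PLAT was nearest to SHROOM3 (0.407), TNFAIP2 (0.558) and DKK3 (0.758). For the inhibitor genes, the nearest were LTK (0.120), ME1 (0.173) and NHSL2 (0.174) for SERPINE2 and SERPINA5 (0.0673), NDP (0.106) and PHKA1 (0.118) for SERPINB2. The promoter pattern of both inhibitor genes was found at 7202 genes, against 1541 for PLAUR and PLAT and 939 for PLAU. More of their 6 values were also 0, so distances cannot be compared between members. SERPINA5 encodes the protein C inhibitor, another serpin that inhibits uPA, and its E2F1 promoter value of 8.84 stood beside 8.48 for SERPINB2.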

How the data were processed

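The authors aligned trimmed reads to a masked hg19 genome with Bowtie, removed duplicates with Picard and called peaks per library with MACS2 (version 2.0.10.20120913 in the file headers) at q < 0.01 against the common input. The deposited lists give the pileup signal at each summit, the fold enrichment (a ratio with a pseudocount of 1) and −log10 p- and q-values. Peaks on chromosomes 1 to 22 and X were used. Those on other sequences (9 for Fra-1, 10 for MYC, 32 for E2F1) were dropped. Start sites were those of GENCODE 44 mapped to GRCh37, and overlaps counted from 1 bp. Fragment numbers and background were recovered from pileup, library scale and fold enrichment and are approximate. With 1 library per TF, intervals cover counting error only. The 5 members, the related genes and the serpin cluster were chosen with earlier results of these data known. Besides members, the genes named are those whose promoters hold a peak of a locus, related genes with a Fra-1 promoter peak or the 3 largest E2F1 values, and the 3 nearest genes by pattern (over 200 kb away). PLG, C10orf55, SERPINB5, SERPINB8, SERPINB10 and the top genes by E2F1 cover were named after their values were seen. Alternatives were stricter peaks, equal list sizes, other windows, flanks, overlaps and motif windows. Procedures were tested on simulated data. Calculations ran in Python 3.11.15 with pandas 2.3.3, scipy 1.17.1 and numpy 2.4.6, and plots in matplotlib 3.10.9.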

Additional observations from a re-analysis of the deposited data

How the results depend on the processing

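Of 74 values recomputed under another setting, 58 stayed within 1.5 times the reported value and 16 did not. The shares over all protein-coding genes and all peaks were not recomputed, so the counts in this section have no background beside them. With each list reduced to the 4867 peaks with the largest −log10 q, Fra-1 had 5 peaks in the loci and a promoter peak at 1 gene (PLAT), E2F1 had 5 peaks and promoter peaks at 2 genes (PLAU and PLAUR), adding gene bodies left 1 and 2 genes, and there were 0 Fra-1 peaks with an E2F1 overlap and 0 regions with all 3 TFs. At a −log10 q of at least 5, MYC had 0 peaks, 0 promoters and 0 gene bodies at the 5 genes, and 0 shared regions remained. The shared region at PLAU was also lost (0) when each peak had to cover 50% of the other and when summits had to lie within 250 bp. With flanks of 100 kb MYC had 4 peaks, and with peaks within 1 kb merged E2F1 had 26. The Fra-1 promoter call was lost at PLAUR with a fold enrichment of at least 5 and at PLAT with the canonical TSS only, and the E2F1 call at SERPINB2 was lost by summit, with the canonical TSS, and with windows of 1 kb. No paired analysis was possible because each TF has 1 library and the values come from no test. The promoter peaks of MYC at PLAU and Fra-1 at PLAUR were each called from about 20 fragments, and what depth adds or hides was not tested.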
